A study of Mus musculus with 10 samples.

Results

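The genes of oxidative phosphorylation encoded by the mitochondrial genome and by the nucleus were followed in mouse oocytes and early embryos. The members were the rows of the expression table whose gene name began with mt- or with Nduf, Uqcr, Atp5 or Cox4 to Cox8, together with the succinate dehydrogenase subunits. The rule used names and no measured value, but it was chosen with earlier results of these data known. Of 21437 rows, 124 were members. The mitochondrial genome gave 37 of them (13 mRNAs, 2 rRNAs and 22 tRNAs), and 87 were nuclear. Among the nuclear rows, 4 were pseudogenes, which left 83 nuclear genes.

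The respiratory chain of the inner mitochondrial membrane passes electrons from NADH (complex I) and succinate (complex II) through complexes III and IV to oxygen, and the proton gradient that results drives ATP synthase (complex V). Complexes I, III, IV and V are assembled from proteins of both genomes, whereas all subunits of complex II are nuclear. The mitochondrial genome is transcribed from both strands as long precursors that are cut at the tRNAs, and it is inherited through the oocyte. In cleavage stage mouse embryos the maternal mitochondria are partitioned between blastomeres.

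The study examined how AGO2, an Argonaute protein that binds small RNAs, takes part in the clearance of maternal mRNAs. RNA-seq libraries were made from control MII oocytes (16 h after hCG), middle 2-cell embryos (40 h) and early 4-cell embryos (55 h), and from embryos of both stages depleted of Ago2, which gave 5 groups of 2 libraries. Control samples are labelled wild type, and Ago2 kd embryos came from zygotes injected with siRNAs against Ago2 and an antibody to AGO2. Females were 7 weeks old. The labels name ICR for every sample, while the Methods give ICR for the oocytes and crosses of F1 mice for the embryos, so strain and the step from oocyte to embryo cannot be told apart. The labels do not say whether the replicates came from separate collections, so p-values measure the spread between these libraries, which may be technical. Ago2 itself was not analysed here, and the knockdown was not checked.

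The values are FPKM, fragment numbers scaled to transcript length and to sequencing yield, and read counts were not used here, so depth is unknown and no counting interval is given. An FPKM is relative to its library: more copies of an RNA and fewer copies of the others cannot be told apart. The FPKM of a library summed to between 178680 and 458870, with both oocyte libraries highest. The 7 oocyte markers summed to 5395 and 6425 FPKM in MII oocytes and to at most 30.9 in any 4-cell library. Among them, Zp1 was at 0 and 0.57 FPKM in oocytes. Bmp15 was at 605 and 449 FPKM in oocytes and at 787 FPKM in control 2-cell replicate 1. The sum of the 4 listed 2-cell markers, of 7 chosen, was highest in 2-cell embryos. Tcstv1 alone was higher in oocytes than in control 2-cell embryos, and Zscan4d was above 0 only in control 2-cell replicate 1. The 3 listed cumulus cell markers, of 11 chosen, summed to at most 2.01, except for 35.7 in control 4-cell replicate 1. There Nr5a2, which embryos also express, made up most of the sum. Both listed sperm markers, of 6 chosen, summed to at most 1.78. Single values of 0 could not be read as absence: among genes above 10 FPKM in 1 replicate, 6.32% to 14.3% were below 0.1 FPKM in the other.

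Tests were made with limma on log2(FPKM + 1), and a gene was called where the p-value adjusted by the Benjamini-Hochberg method over all 8726 genes tested was below 0.05. A gene was tested if 2 or more libraries held 1 FPKM or more of it, a filter passed by 40.7% of all rows. Of the 124 members, 100 passed: the 13 mitochondrial mRNAs, both rRNAs, 18 tRNAs and 67 of the 83 nuclear genes. The other members were mostly low, and 11 of them stayed below 1 FPKM in all libraries, including Ndufa12 and Cox7a1, which were listed at 0 throughout. With 2 libraries against 2, the smallest two-sided p of an exact permutation test over libraries is 0.333, so summed levels are described without a test.

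Sequences of the 4 tRNAs that lie side by side on the minus strand between mt-Nd2 and mt-Co1 are shown first, because their values are set beside those of the neighbouring mRNAs in a comparison given further on. They are the transcript sequences of GENCODE M21 (GRCm38), written 5′ to 3′ with the anticodon in capitals; they carry alanine, asparagine, cysteine and tyrosine and span chrM:5018-5086, chrM:5089-5159, chrM:5192-5257 and chrM:5260-5326.
mt-Ta: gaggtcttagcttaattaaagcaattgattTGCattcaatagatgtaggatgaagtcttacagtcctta
mt-Tn: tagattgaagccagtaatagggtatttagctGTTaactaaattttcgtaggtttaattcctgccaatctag
mt-Tc: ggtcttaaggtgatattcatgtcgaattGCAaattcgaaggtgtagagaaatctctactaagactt
mt-Ty: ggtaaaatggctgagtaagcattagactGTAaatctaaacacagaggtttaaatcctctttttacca

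The 13 mRNAs of the mitochondrial genome were far from equal in listed FPKM. Whether these FPKM follow the amounts of RNA was not tested, and all 13 count equally in the medians given below. The 7 mRNAs mt-Cytb, mt-Co1, mt-Nd1, mt-Nd2, mt-Nd4, mt-Nd5 and mt-Nd6 ranged from 77.9 to 10840 FPKM and held between 99.0% and 99.7% of the mitochondrial mRNA signal of each library. The other 6, mt-Co2, mt-Co3, mt-Atp6, mt-Atp8, mt-Nd3 and mt-Nd4l, ranged from 0 to 58.8 FPKM. The 2 sets did not overlap in any library. mt-Co2, a catalytic subunit of complex IV like mt-Co1 and encoded on the same strand, was at 1.11 and 2.57 FPKM in MII oocytes, where mt-Co1 was at 1782 and 2014 FPKM.

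Position separated all 13 of these genes: the 6 lower mRNAs are the unbroken run of mRNAs from mt-Co2 to mt-Nd4l (chrM:7013-10173). Length separated most of them. The 6 lower mRNAs are 204 to 784 bases long and the 7 higher ones 519 to 1824 bases, and Spearman's rho between length and mean log2 level was 0.73 across the 13 genes, which share libraries and are given as a description. mt-Nd6, with 519 bases at chrM:13552-14070 on the minus strand, was the exception among short genes, with 77.9 to 422.7 FPKM. Across 81 annotated nuclear members rho with the longest transcript was 0.09. Gene pairs that overlap in the annotation (mt-Atp8 with mt-Atp6, mt-Nd4l with mt-Nd4, mt-Nd5 with mt-Nd6) share reads whose assignment is uncertain, and without a statement on strand, reads of a minus strand gene and of the precursor opposite to it cannot be told apart. The part of length, of position or of read mapping in these levels was not tested.

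**Figure D1:**
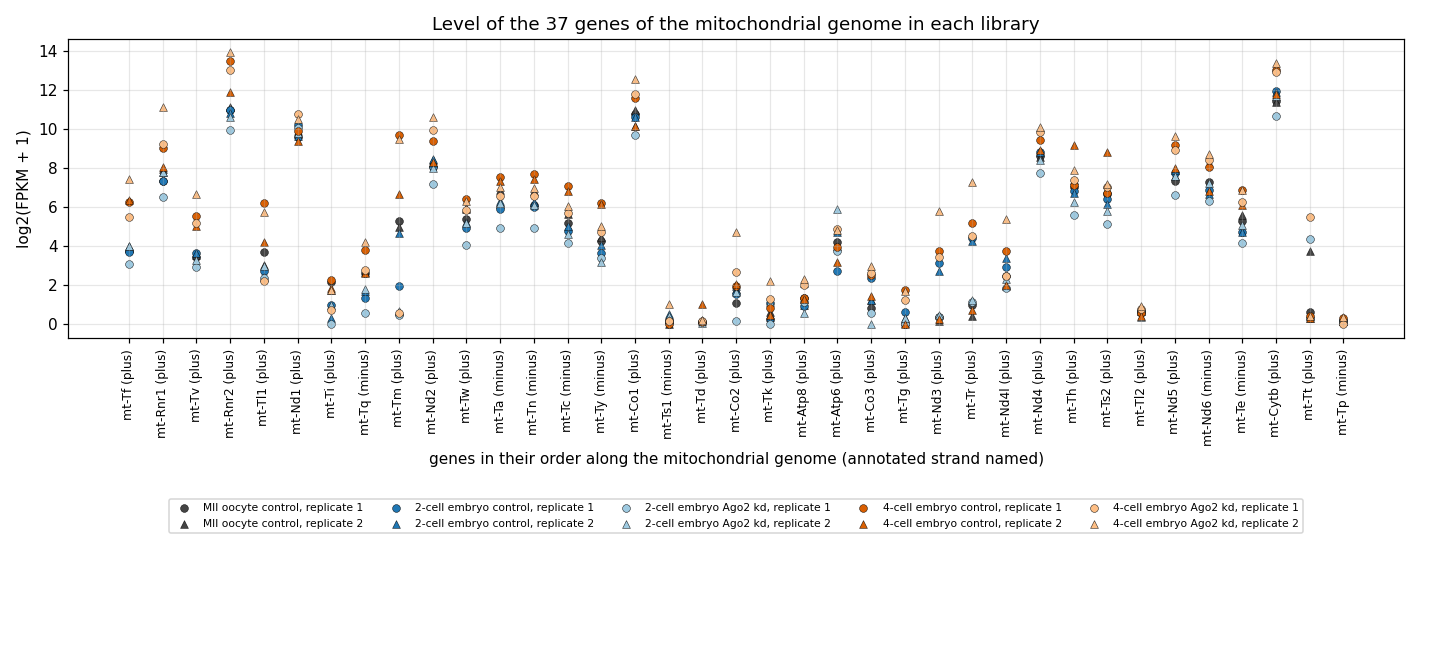
The 37 genes of the mitochondrial genome in genome order (x axis, annotated strand in brackets) against log2(FPKM + 1) (y axis), 1 point per library, with groups in colour and replicates as circles and triangles. mt-Rnr2, mt-Cytb and mt-Co1 stood highest, and the stretch from mt-Co2 to mt-Nd4l stayed low.

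Some neighbouring short genes moved together between replicates of 1 group. mt-Nd3 (complex I) was at 12.5 FPKM in control 4-cell replicate 1 and at 0.20 FPKM in replicate 2, and the adjacent arginine tRNA mt-Tr was at 35.6 and 0.67 FPKM. The adjacent tRNAs mt-Th and mt-Ts2 were at 590.6 and 455.6 FPKM in control 4-cell replicate 2, against 139.8 and 104 FPKM in replicate 1. The methionine tRNA mt-Tm spread most widely, with 835.7 and 100 FPKM in control embryos, against 0.48 and 715.7 FPKM in Ago2 kd 4-cell embryos. For each of these short RNAs 1 library of a group thus stood well apart from the other. Other neighbours did not move together: in Ago2 kd 2-cell embryos mt-Atp8 was at 1.18 and 0.48 FPKM and mt-Atp6 at 12.6 and 58.8 FPKM.

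Nuclear members summed to less than the mitochondrial mRNAs in every library, although single nuclear genes reached the FPKM of some of the 7 higher mRNAs. The sum over the 83 nuclear genes was 0.24% to 0.79% of the FPKM of a library, against 1.41% to 6.91% for the 13 mitochondrial mRNAs, a ratio of 5.79 to 12.7 in favour of the mitochondrial genome. Atp5b, the catalytic beta subunit of ATP synthase (chr10:128083273-128090391), alone held 12.6% to 38.3% of the nuclear sum. In both oocyte libraries it was above mt-Nd2, mt-Nd4, mt-Nd5 and mt-Nd6. Cox5a, a subunit of complex IV (chr9:57521274-57532426), ranged from 63.1 to 363.7 FPKM, below Uqcrc2 in both oocyte libraries and above Atp5b in Ago2 kd 4-cell replicate 2.

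Many subunits of the same complexes were listed near 0 in the same libraries. Cox5b, which sits in complex IV beside Cox5a, did not exceed 2.03 FPKM. Of the complex II subunits, Sdha was above 0 in every library, Sdhb was listed at 0 in 8 of them and stood at 1.02 and 9.53 FPKM in replicate 2 of control and of Ago2 kd 4-cell embryos, and Sdhc did not exceed 0.095 FPKM. Sdhd was not analysed here. At 1 FPKM or more stood 31 and 35 of the 83 nuclear genes in MII oocytes, 34 and 35 in control and 29 and 34 in Ago2 kd 2-cell embryos, 57 and 51 in control and 41 and 66 in Ago2 kd 4-cell embryos. The control 4-cell libraries thus lay above all oocyte and 2-cell libraries, while all rows of the table at 1 FPKM or more ranged only from 22.8% to 27.2%.

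**Figure D2:**
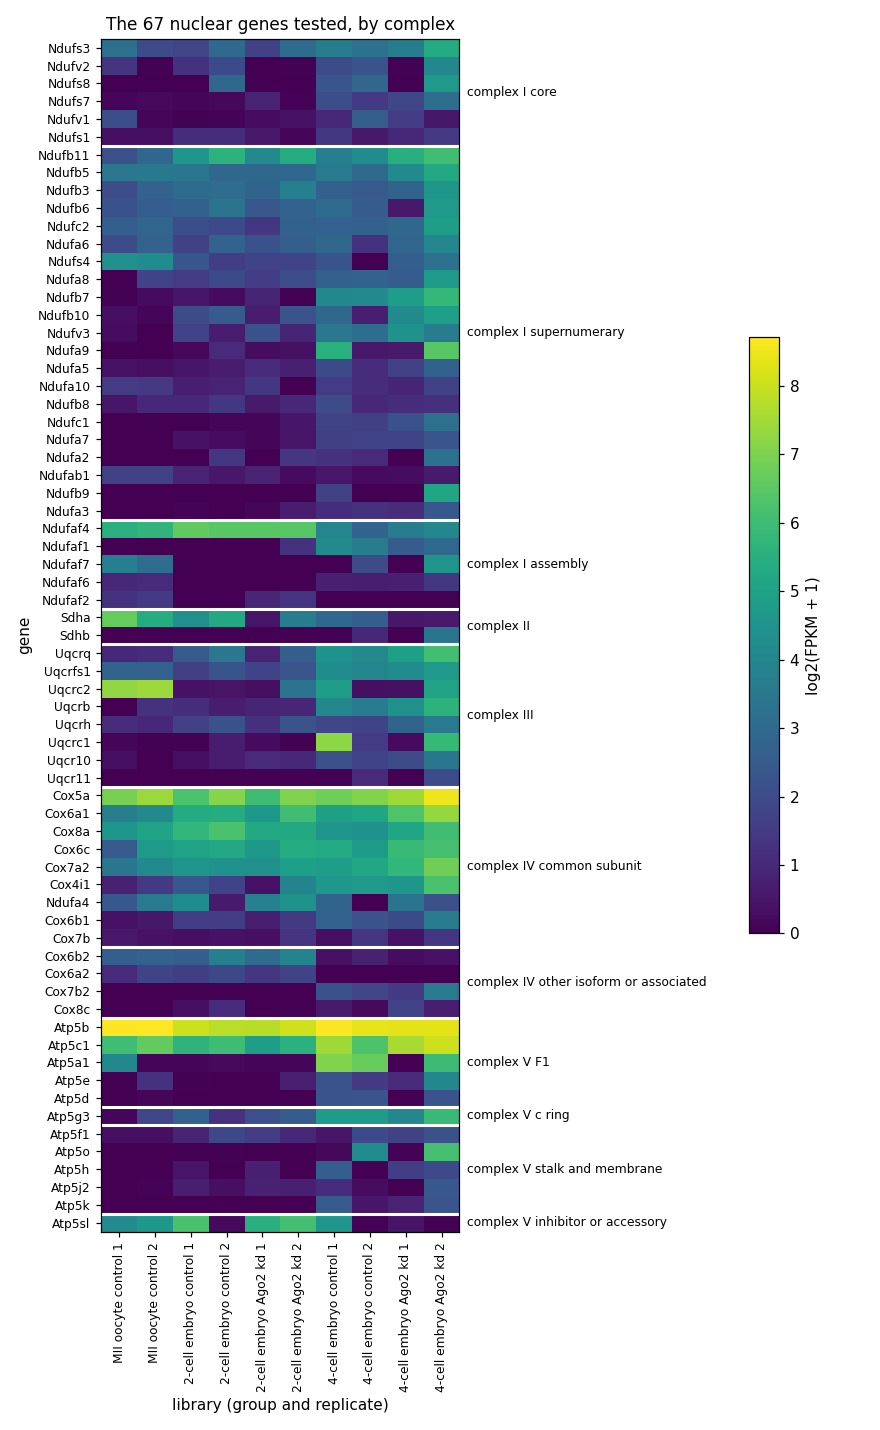
The 67 nuclear genes tested (rows, grouped by complex and role) in the 10 libraries (columns), coloured by log2(FPKM + 1). Atp5b and Cox5a were high in every library, and more genes left the dark end of the scale at the 4-cell stage, most in Ago2 kd replicate 2.

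From MII oocytes to control 2-cell embryos, few members changed: 1 rose and 4 fell of 100 tested. Ndufb11, a membrane arm subunit of complex I, rose, and Uqcrc2, a core subunit of complex III, Atp5b and the complex I assembly factors Ndufaf2 and Ndufaf6 fell. No mitochondrial mRNA, rRNA or tRNA was called by limma, and of the mRNAs 0 passed an unadjusted p below 0.05 either. At that limit 6 members were higher and 8 lower, where 11% and 21.6% of all genes were. Among all genes tested, 6.54% rose and 14.2% fell, so the members' counts lay below the background in both directions.

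Ndufb11 (chrX:20615326-20617619) was at 3.53 and 6.76 FPKM in oocytes and at 22.2 and 48.2 FPKM in 2-cell embryos. The groups did not overlap, and the difference was 2.51 log2 units (SE 0.61, adjusted p = 0.0282, limma). Its call was lost under 5 of 17 alternative settings. Uqcrc2 (chr7:120635176-120659524) was at 157 and 174 FPKM in oocytes and at 0.35 and 0.37 FPKM in 2-cell embryos. This fall was the largest among the members, at -6.93 log2 units (SE 1.95, adjusted p = 0.0464, limma), yet its call was lost under 12 of 17 alternative settings. In 4-cell embryos, control and Ago2 kd each held 1 library at 28.3 or 31.4 FPKM beside 1 at 0.28 or 0.31 FPKM.

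Atp5b was at 419 and 411 FPKM in oocytes and at 267 and 226 FPKM in 2-cell embryos. The fall of 0.75 log2 units (-0.75, SE 0.21, adjusted p = 0.0445, limma) rested on the scale, since the difference was 0.43 log2 units in the other direction when every library was scaled to the same sum. Ndufaf2 was at 1.44 and 1.81 FPKM and Ndufaf6 at 0.94 and 1.10 FPKM in oocytes, and both were listed at 0 in both 2-cell libraries (adjusted p = 0.0045 and 0.0311, limma). Sdha, the flavoprotein of complex II, was at 100 and 41.4 FPKM in oocytes and at 19.8 and 37.8 FPKM in 2-cell embryos, with no call (adjusted p = 0.48).

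The 13 mitochondrial mRNAs had a median difference of 0.29 log2 units over this step, beside 0.21 for the 67 nuclear genes and -0.06 for all genes tested. Without 2-cell control replicate 2 the nuclear median was 0.00. The mitochondrial mRNAs took 1.41% and 1.51% of the FPKM of the oocyte libraries and 4.00% and 3.61% of those of 2-cell embryos. The summed FPKM of the oocyte libraries was more than double that of the 2-cell control libraries. When each library was scaled to the same sum, the median of all genes moved to 0.38 and that of the mitochondrial mRNAs to 1.41 log2 units, 14 members were called higher and 2 lower, and mt-Cytb (1.68, adjusted p = 0.0228, limma), mt-Nd1, mt-Nd4 and mt-Nd5 were among those called higher. The share of all genes called at that scale is not given here, so these counts have no background beside them. Direction and number of calls for this step thus depended on the scale.

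**Figure D3:**
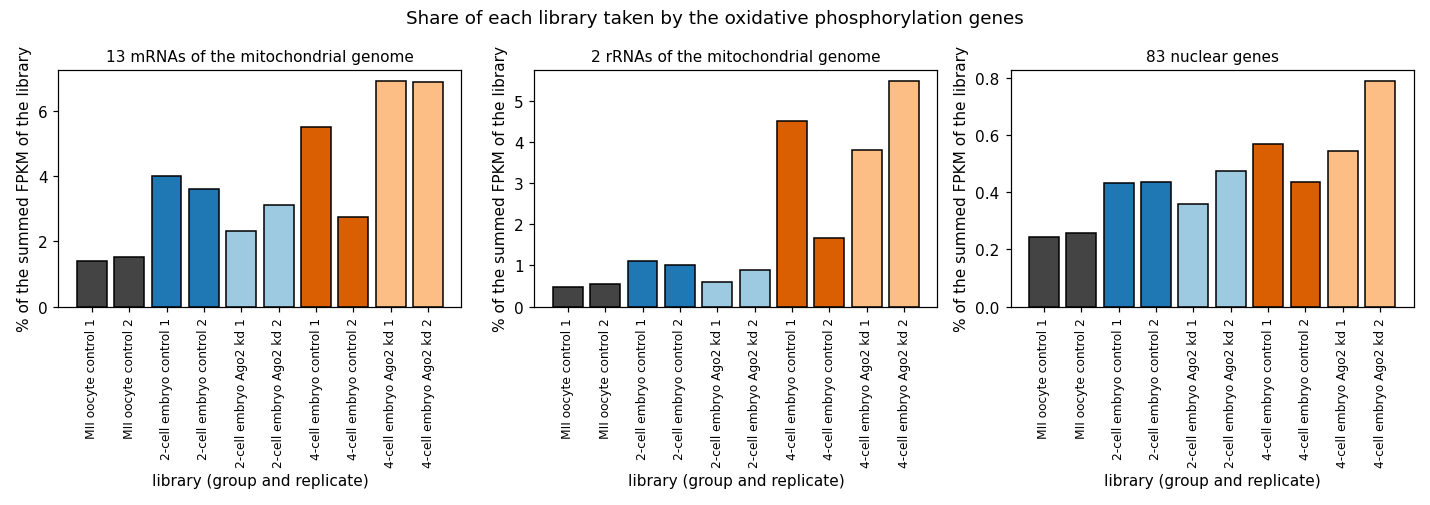
Bars give the share of the summed FPKM of each library (y axes, %, each from 0 on its own scale) held by the 13 mitochondrial mRNAs, the 2 mitochondrial rRNAs and the 83 nuclear genes, with libraries along the x axes. Both oocyte libraries were lowest in all 3 panels, and in control 4-cell embryos replicate 1 was about double replicate 2 for mitochondrial mRNAs (5.49% and 2.74%).

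Between control 2-cell and 4-cell embryos, 19 members rose and 4 fell of 100 tested. Of the 67 nuclear genes, 12 rose (17.9%) and 4 fell (5.97%), against a background of 21.1% of all genes higher and 17.5% lower. The rises were thus near the background and the falls were fewer than it. Among mitochondrial genes, mt-Rnr2, the large ribosomal RNA, and 6 of the 18 tRNAs tested rose, while 0 of the 13 mitochondrial mRNAs were called by limma, also at an unadjusted p below 0.05, where 27 members were higher and 4 lower, against 26% and 20.9% of all genes. Median differences were 0.24 log2 units for the mitochondrial mRNAs, 0.69 for the nuclear genes and 0.24 for all genes tested. The median of the mitochondrial mRNAs had no stable sign: it was -0.09, -0.05 and -0.08 under the 3 scalings and -0.24 without control 4-cell replicate 1.

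In complex I, 5 of 27 tested subunits rose and 0 fell. Ndufb7 (chr8:83566671-83571626), a subunit of the membrane arm, was at 0.45 and 0.19 FPKM in 2-cell and at 16 and 17.1 FPKM in 4-cell control embryos, a rise of 3.74 log2 units (SE 0.49, adjusted p = 0.0014, limma). Ndufv3, Ndufc1, Ndufs7 and Ndufa7 rose by between 1.33 and 2.09 log2 units. Ndufs7, which carries an iron-sulfur cluster, reached 3.25 and 1.81 FPKM, the only core subunit of complex I called. Its call was lost under 8 and that of Ndufv3 under 11 of 17 alternative settings.

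The assembly factors of complex I went in both directions. Ndufaf1 (chr2:119655446-119662827) was listed at 0 in both 2-cell control libraries and reached 16.7 and 11.7 FPKM in 4-cell embryos (adjusted p = 0.0012, limma). Ndufaf4 (chr4:24898083-24905001) ran the other way, with 95.8 and 85.8 FPKM in 2-cell and 14.6 and 5.89 FPKM in 4-cell control embryos. It fell by 3.15 log2 units (SE 0.43, adjusted p = 0.0017, limma), and in oocytes it had stood at 45.5 and 50.5 FPKM, between both stages.

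In complex III, Uqcrb and the Rieske iron-sulfur protein Uqcrfs1 rose, 2 of 8 tested. Uqcrfs1 was at 2.12 and 3.78 FPKM in 2-cell and at 17.7 and 14.9 FPKM in 4-cell control embryos (2.16 log2 units, SE 0.41, adjusted p = 0.0064, limma). Uqcrc1, the partner of Uqcrc2 in the core of the complex, was at 151 FPKM in replicate 1 and at 1.93 FPKM in replicate 2 of 4-cell control embryos, so a difference could not be told from the spread.

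In complex V, 3 of 12 tested members rose: Atp5a1, Atp5g3 and Atp5d. The 12 include Atp5sl, which was placed here by its name and not as a subunit. Atp5a1, the alpha subunit that alternates with Atp5b in the F1 head, was at 0.10 and 0.16 FPKM in 2-cell and at 132 and 103 FPKM in 4-cell control embryos (6.71 log2 units, SE 1.96, adjusted p = 0.0336, limma). It was the largest rise among the members, and it was lost under 9 of 17 alternative settings, as were Atp5g3 under 11 and Atp5d under 7. In oocytes 1 library held 15.8 FPKM of it and the other 0.11 FPKM. Atp5b was at 416 and 346 FPKM in 4-cell embryos, so both subunits of the head were high at this stage.

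In complex IV, 3 of 13 tested members fell (23.1%, near the background of 17.5%) and 1 rose. Cox6a2, the heart and muscle isoform, was at 2.09 and 2.68 FPKM in 2-cell control embryos and was listed at 0 in all 4 libraries of 4-cell embryos (adjusted p = 0.0067, limma). Cox6b2, an isoform known from testis, was at 5.30 and 12.5 FPKM in 2-cell and at 0.31 and 0.74 FPKM in 4-cell control embryos (-2.61 log2 units, SE 0.51, adjusted p = 0.0076, limma). The ubiquitous counterparts Cox6a1 and Cox6b1 were not called. Cox8a also fell (-1.51 log2 units, adjusted p = 0.0237, limma), and Cox7b2, listed at 0 in every oocyte and 2-cell library, reached 3.56 and 2.52 FPKM (adjusted p = 0.041, limma), a call lost under 10 of 17 settings.

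mt-Rnr2 was at 2002 and 1824 FPKM in 2-cell and at 11640 and 3774 FPKM in 4-cell control embryos (1.79 log2 units, SE 0.55, adjusted p = 0.039, limma). The groups did not overlap, although the 4-cell replicates lay far apart, and the call was lost under 10 of 17 alternative settings. The tRNAs mt-Tf, mt-Tv, mt-Tn, mt-Tc, mt-Ty and mt-Te rose by between 1.44 and 2.49 log2 units, with the calls of mt-Tn and mt-Tv lost under 12 and 11 of the 17 settings. Their rows are 66 to 71 bases long. Reads of a cut tRNA and of an uncut precursor cannot be told apart, for these and for all tRNA rows. mt-Ty was at 11.8 and 16 FPKM in 2-cell and at 74.8 and 70.7 FPKM in 4-cell embryos (2.32 log2 units, SE 0.32, adjusted p = 0.0018, limma). The 6 tested tRNAs of the minus strand all had positive differences, from 1.35 to 2.32 log2 units.

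**Figure D4:**
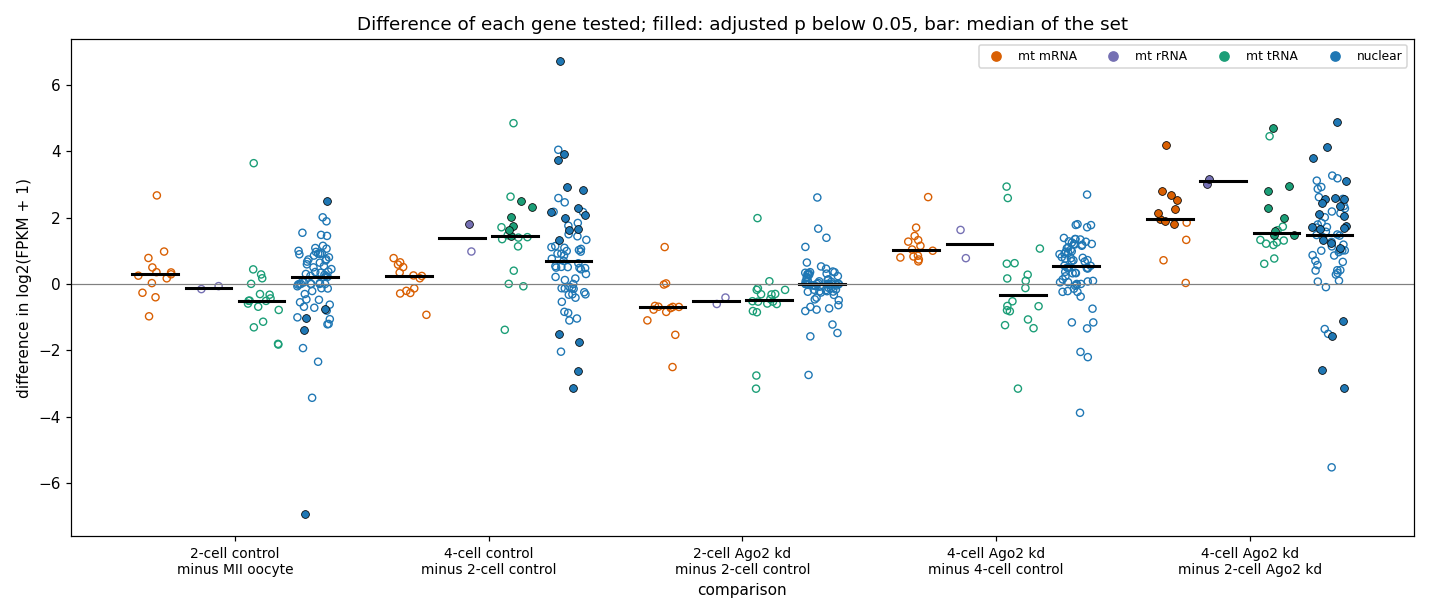
Difference in log2(FPKM + 1) of each gene tested (y axis) in 5 comparisons (x axis), by set, with filled points for adjusted p below 0.05 and black bars for the median of the set. Nuclear and tRNA points were called between control 2-cell and 4-cell embryos, mitochondrial mRNAs only in the Ago2 kd step, and no point was called between Ago2 kd and control embryos.

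At the 2-cell stage, 0 of 100 members were called between Ago2 kd and control embryos by limma, where 0.332% of all genes were called higher and 0.218% lower. Without adjustment, at p below 0.05, Ndufaf2 was higher and 3 members were lower (Sdha, mt-Co3 and mt-Nd4), against 2.96% and 3% of all genes. The median difference was -0.69 log2 units for the mitochondrial mRNAs and 0.00 for the nuclear genes and for all genes. For 8 of the 13 mitochondrial mRNAs both Ago2 kd libraries lay below both controls, which held for 14.7% of all genes. The 13 mRNAs share libraries and precursors and can move together, so this count is a description.

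mt-Nd4 (complex I) was at 458.4 and 459.4 FPKM in control embryos, against 213.6 and 336.5 FPKM in Ago2 kd 2-cell embryos (-0.77 log2 units, SE 0.28, adjusted p = 0.67, limma). mt-Cytb, the only mitochondrial subunit of complex III, was at 4017 and 3773 FPKM in control embryos, against 1644 and 3362 FPKM in Ago2 kd embryos, and mt-Co1 was at 1564 and 1588 against 827 and 1150 FPKM. In each case Ago2 kd replicate 1 was the lowest. Without it the median of the mitochondrial mRNAs was -0.26, and without replicate 2 it was -1.10 log2 units, so this library set the size of the difference. Sdha was at 19.8 and 37.8 FPKM in control embryos, against 0.42 and 11.7 FPKM in Ago2 kd embryos (-2.74 log2 units, SE 0.997, adjusted p = 0.68, limma). Ndufaf2, listed at 0 in both controls, was at 0.89 and 1.48 FPKM (adjusted p = 0.11, limma), and it passed with a pseudocount of 0.1 or after scaling to equal sums.

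At the 4-cell stage the mitochondrial mRNAs lay on the other side. All 13 had positive differences between Ago2 kd and control embryos, with a median of 1.04 log2 units, beside 0.55 for the nuclear genes and 0.00 for all genes tested. Both Ago2 kd libraries lay above both controls for 9 of the 13, against 20.1% of all genes. This count too is a description, since a single low or high library can move the 13 mRNAs together. No member was called by limma (background 1.23% higher and 2.77% lower), and at an unadjusted p below 0.05 14 members lay above and 3 below the controls, against 7.37% and 8.07% of all genes.

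mt-Nd1 was at 947 and 683 FPKM in control embryos, against 1784 and 1454 FPKM in Ago2 kd 4-cell embryos (1.001 log2 units, SE 0.27, adjusted p = 0.12, limma). mt-Nd2 was at 669 and 315 against 979 and 1602 FPKM (1.45 log2 units, adjusted p = 0.18, limma), and mt-Co1 at 3064 and 1131 against 3570 and 6061 FPKM (1.32 log2 units, adjusted p = 0.23, limma). For these mRNAs the groups did not overlap, and control replicate 2 was the lowest library in each. mt-Cytb overlapped, with 8475 and 3618 FPKM in control embryos, against 7852 and 10840 FPKM in Ago2 kd embryos. The median of the mitochondrial mRNAs was 1.65 log2 units without control replicate 1 and 0.60 without control replicate 2. Without control replicate 1, 2 members were called higher, mt-Co1 among them.

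The 4 minus strand tRNAs printed above, chosen for description after their values were seen, had negative differences, and none was called. mt-Ty was at 74.8 and 70.7 FPKM in control embryos, against 25.2 and 31.6 FPKM in Ago2 kd 4-cell embryos (-1.33 log2 units, SE 0.32, adjusted p = 0.0815, limma), the smallest adjusted p of any member here. mt-Tc was at 134 and 112 against 51.1 and 64.9 FPKM (-1.07 log2 units, adjusted p = 0.17, limma). mt-Ta was at 189 and 165 against 93.2 and 131 FPKM, and mt-Tn at 208 and 173 against 93.8 and 128 FPKM. In all 4 both Ago2 kd libraries lay below both controls, which held for 5 of 18 tRNAs and for 16.9% of all genes. The remaining tRNA of the 5, mt-Ti, is on the plus strand. The plus strand mRNAs mt-Nd2 and mt-Co1 on either side of the 4 lay above the controls. The plus strand tRNA mt-Tw, between mt-Nd2 and mt-Ta, overlapped, at 85.1 and 62.4 against 56.9 and 78.4 FPKM. Of the 12 plus strand tRNAs tested, 6 had negative and 6 positive differences, so the tRNAs did not simply divide by strand. The other 2 minus strand tRNAs tested had positive differences and overlapped: mt-Te was at 118.3 and 67.6 FPKM in control embryos, against 77.2 and 118.1 FPKM in Ago2 kd embryos, and mt-Tq was at 13.2 and 5.20 against 5.95 and 17.7 FPKM. The minus strand mRNA mt-Nd6 also had a positive difference, of 1.15 log2 units (adjusted p = 0.37, limma).

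The nuclear genes at the 4-cell stage depended on a single library. Ago2 kd replicate 2 held 2578 FPKM of nuclear members and replicate 1 held 1263 FPKM, with 1527 and 1053 FPKM in the controls. The median nuclear difference was 1.48 log2 units without Ago2 kd replicate 1 and -0.0079 without replicate 2, and 4 members were called higher in the first case, Sdhb among them, and 2 lower in the second. In Ago2 kd embryos, 6 nuclear members (Atp5a1, Atp5o, Ndufaf7, Ndufb9, Ndufs8 and Ndufv2) were above 10 FPKM in replicate 2 and below 0.1 FPKM in replicate 1, and over all genes such pairs were also most frequent there (14.3%). Cox6a1 had the smallest adjusted p of the nuclear genes, at 29.8 and 34.9 FPKM in control embryos, against 78.8 and 162.1 FPKM in Ago2 kd embryos (1.78 log2 units, SE 0.55, adjusted p = 0.17, limma).

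The step from 2-cell to 4-cell within Ago2 kd embryos was added after the values had been seen. In it 37 members rose and 4 fell of 100 tested, against a background of 18.8% and 16.5%. Of the mitochondrial mRNAs 9 of 13 rose (69.2%), as did both rRNAs and 8 of 18 tRNAs, and of the nuclear genes 18 of 67 rose (26.9%) and 4 fell. mt-Nd4 went from 213.6 and 336.5 to 927 and 1105 FPKM (1.91 log2 units, SE 0.28, adjusted p = 0.0025, limma). With 20 members called without 2-cell Ago2 kd replicate 1, and 22 without 4-cell Ago2 kd replicate 2, these libraries carried many of the calls. When only the 4 Ago2 kd libraries were fitted, 5 members were called higher and 5 lower, and the 9 mitochondrial mRNAs and both rRNAs all lost their calls (adjusted p between 0.0534 and 0.284 for the mRNAs, limma).

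Whether this step differed from the control step was tested as the interaction of knockdown and stage, and 0 of 100 members passed in limma, where 0.642% of all genes had a higher and 1.64% a lower term. Without adjustment 13 members lay above and 2 below zero at p below 0.05, against 6.27% and 7.11% of all genes. All 13 mitochondrial mRNAs had positive interaction terms, with a median of 1.57 log2 units, and mt-Nd4 had the smallest adjusted p (1.57 log2 units, SE 0.39, adjusted p = 0.12, limma). Of the 23 members called in the control step and the 41 in the Ago2 kd step, 18 were shared (78.3% and 43.9%). Ndufaf4, Cox6b2 and Cox6a2 fell in both steps.

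Among the 77 listed genes that regulate, express or assemble the respiratory chain outside the rule, 56 were tested. The list was chosen with earlier results of these data known, so its shares beside those of all genes are a description. From oocyte to 2-cell embryo 4 rose (7.14%) and 7 fell (12.5%), near the 6.54% and 14.2% of all genes. From 2-cell to 4-cell control embryos 20 rose (35.7%) and 2 fell (3.57%), beside 21.1% and 17.5% of all genes. Tfam, which packages and transcribes mitochondrial DNA, went from 2.74 and 3.53 to 21.8 and 31.5 FPKM at the second step (2.73 log2 units, SE 0.39, adjusted p = 0.0021, limma). Tmem70, an assembly factor of ATP synthase, fell from 33.6 and 42.0 to 4.79 and 3.74 FPKM and then rose to 190 and 180 FPKM (5.15 log2 units, SE 0.35, adjusted p = 1.11e-04, limma). Cyc1, the cytochrome c1 of complex III, was listed at 0 in both oocyte libraries, at 8.43 and 13.5 FPKM in 2-cell and at 46.0 and 45.6 FPKM in 4-cell control embryos, with a call at both steps. The list therefore held rises at the 4-cell stage in several roles, with the same libraries as above.

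The listed gene that moved most with the knockdown was Nrf1, nuclear respiratory factor 1, a transcription factor known to bind promoters of respiratory chain genes (chr6:30047988-30153458). It was at 1.43 and 0.52 FPKM in control embryos, against 30.1 and 36.4 FPKM in Ago2 kd 2-cell embryos, and at 69.3 and 106 FPKM in control embryos, against 3.69 and 3.10 FPKM in Ago2 kd 4-cell embryos. It was higher by 4.15 log2 units (SE 0.42, adjusted p = 0.0111, limma) at the first and lower by 4.30 (-4.30, SE 0.42, adjusted p = 0.0020, limma) at the second stage. The gene has 20 annotated transcripts, and how their values were reduced to 1 row is not given in the sources used here. Each of these calls was lost under 1 of 17 alternative settings. It was the only listed gene called at the 2-cell stage, 1 of 56 tested (1.79%), where 0.332% of all genes were called higher. At the 4-cell stage Sco1 and Hsd17b10 were also higher and Cox11, Pet117 and Tbrg4 lower in Ago2 kd embryos, though Hsd17b10 lost its call under 16 of 17 alternative settings. With Nrf1 counted, 3.57% of the 56 were called higher and 7.14% lower, beside 1.23% and 2.77% of all genes. Gabpa, another factor known for such promoters, was listed at 0 in both oocyte libraries and stood at 21 and 46.5 FPKM in 2-cell control embryos (adjusted p = 0.0033, limma).

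The promoters of the nuclear members were searched for the NRF1 motif (GCGCA, then any base, then GCGC) on both strands, in the window from 250 bases before to 50 bases after the start of each gene (RefSeq, GRCm38.p6). Of 83 nuclear genes, 66 matched an entry, and 17 of these (25.8%) held the motif, against 5.19% of all 27025 genes with an entry. Of the 10 members with an entry that rose between control 2-cell and 4-cell embryos, 1 held it, Atp5g3. The promoters of Sdha, Ndufaf4 and Atp5g3 are shown because their genes are described above with a high oocyte level, a fall and a rise. Their windows are chr13:74350191-74350490 (minus strand), chr4:24897833-24898132 (plus strand) and chr2:73911277-73911576 (minus strand), written 5′ to 3′ along the gene with motif matches in capitals.
Sdha: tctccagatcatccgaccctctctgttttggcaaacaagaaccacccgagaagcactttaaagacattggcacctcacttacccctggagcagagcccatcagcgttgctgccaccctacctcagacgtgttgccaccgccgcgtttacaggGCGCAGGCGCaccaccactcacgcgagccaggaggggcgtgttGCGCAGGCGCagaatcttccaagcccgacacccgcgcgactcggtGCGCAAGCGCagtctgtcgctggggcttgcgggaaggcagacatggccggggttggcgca
Ndufaf4: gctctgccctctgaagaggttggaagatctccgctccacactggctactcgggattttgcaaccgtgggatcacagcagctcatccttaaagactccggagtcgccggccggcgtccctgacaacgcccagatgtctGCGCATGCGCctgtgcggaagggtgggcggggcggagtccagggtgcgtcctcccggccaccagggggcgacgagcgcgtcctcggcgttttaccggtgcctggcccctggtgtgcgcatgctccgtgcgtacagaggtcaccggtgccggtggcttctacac
Atp5g3: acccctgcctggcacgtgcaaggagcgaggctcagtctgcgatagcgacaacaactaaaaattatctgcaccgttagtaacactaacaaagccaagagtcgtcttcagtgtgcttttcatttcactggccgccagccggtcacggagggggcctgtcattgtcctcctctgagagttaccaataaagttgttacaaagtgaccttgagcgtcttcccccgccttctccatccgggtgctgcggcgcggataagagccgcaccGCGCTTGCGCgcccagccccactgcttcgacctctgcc

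The Sdha window held 3 matches and the other windows 1 each. A match is a description of the letters and not of binding. Sdha was at 100 and 41.4 FPKM in oocytes, where Nrf1 was at 0.74 and 0.36 FPKM. It was at 6.58 and 5.28 FPKM in control 4-cell embryos, where Nrf1 was at 69.3 and 106 FPKM. In Ago2 kd 4-cell embryos Sdha was at 0.46 and 0.53 FPKM. Atp5g3 was at 5.55 and 1.34 FPKM in 2-cell and 27.0 and 26.8 FPKM in 4-cell control embryos. It was at 15.2 and 57.0 FPKM in Ago2 kd 4-cell embryos, where Nrf1 was at 3.69 and 3.10 FPKM. Ndufaf4 was at 95.8 and 85.8 FPKM in control 2-cell embryos, against 85.9 and 87.3 FPKM in Ago2 kd 2-cell embryos. Nrf1 was at 1.43 and 0.52 against 30.1 and 36.4 FPKM there. At the 4-cell stage Ndufaf4 was at 14.6 and 5.89 FPKM in control embryos, against 11.6 and 15.7 FPKM in Ago2 kd embryos. The other genes with the motif are not set beside Nrf1 here, and a link between Nrf1 and these genes was not tested.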

How the data were processed

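RNA-seq had been done on 10 libraries. Per the paper's methods, reads were trimmed (Trim Galore) and mapped by the authors with HISAT2 to the mouse genome, and FPKM were made with StringTie. The submitters' processing notes name HISAT2 2.1.0, CASAVA 1.4 and mm10. The deposited FPKM, 1 per gene name and library, entered as log2(FPKM + 1) with no other scaling, and the study's DESeq2 tests need counts that were not used here. limma 3.58.1 in R 4.3.3 fitted 1 mean per group to all 10 libraries (5 residual degrees of freedom, empirical Bayes with trend), two-sided. The code was tested on simulated data. Positions came from GENCODE M21, which named 122 of 124 members.

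Members and lists were chosen with earlier results of these data known. The genes named were the mitochondrial mRNAs, Sdha, Sdhb and Sdhc, the highest member of each complex and, for each comparison, the 3 largest rises and falls among called nuclear genes without overlap; other names were chosen after their values were seen. Differences against groups listed at 0 are not given, except as interaction terms in the closing section. Alternatives were a pseudocount of 0.1, no filter, 3 scalings, the replicate number as a term, only the groups compared, an unadjusted p and leaving out each library.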

Additional observations from a re-analysis of the deposited data

Results flagged for a closer look

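In 4 listed pathway genes the effect of the knockdown differed between the 2-cell and 4-cell stage by the test of the difference itself (interaction of knockdown and stage in limma), and the calls held under 17 of 17 alternative settings; no oxidative phosphorylation member was among them. The interaction of Nrf1 was -8.46 log2 units (SE 0.59, adjusted p = 0.0020, limma), with Ago2 kd above control at the 2-cell and below it at the 4-cell stage. That of Tbrg4, a protein that acts on mitochondrial RNA, was -3.98 log2 units (adjusted p = 0.0052, limma), with 22.6 and 23.6 FPKM in control embryos, against 0.68 and 1.13 FPKM in Ago2 kd 4-cell embryos. Cox11, a copper chaperone of complex IV, had an interaction of -3.26 log2 units (adjusted p = 0.0029, limma) and was at 8.74 and 8.45 FPKM in control 4-cell embryos while listed at 0 in all other embryo libraries. Sco1, a copper carrier for complex IV, had one of 3.23 log2 units (adjusted p = 0.0051, limma) and was at 10.2 and 6.85 FPKM in Ago2 kd 4-cell embryos while listed at 0 in every other library. Where a group was listed at 0, the size of these terms depends on the pseudocount. Of the 56 listed genes tested, 1.79% had a higher and 5.36% a lower term, beside 0.642% and 1.64% of all genes.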

How the results depend on the processing

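Of 28 member differences called between control stages, 10 held under all 17 alternatives: Ndufaf2 at the first step, and Ndufaf1, Ndufaf4, Ndufb7, Ndufa7, Uqcrb, Uqcrfs1, Cox6a2, mt-Tc and mt-Ty at the second. The cause of the changes listed here was not tested. Counts below are given without the share of all genes called under each alternative. For MII oocyte to 2-cell embryo, 5 members were called, but 1 without the filter, 16 after scaling to the same sum, 16 with that sum over nuclear genes, 9 after quantile normalization, 13 with only the groups compared, 14 at an unadjusted p, and 1 to 7 when a library was left out (1 without oocyte replicate 1 or 2-cell control replicate 2, 2 without the other of each pair). Over the same 3 scalings the mitochondrial mRNA median was 1.41, 1.46 and 1.23, the nuclear median 0.92 and 0.95 after both scalings to a sum, and Atp5b turned to 0.43, 0.48 and 0.45. For 2-cell to 4-cell control embryos, 23 calls became 13 without the filter and 11 to 29 when a library was left out (12 and 11 without 2-cell control replicate 1 or 2, 13 without 4-cell control replicate 1). For Ago2 kd at the 2-cell stage, 0 became 1 with a pseudocount of 0.1 or either scaling to a sum and 4 at an unadjusted p, and stayed 0 without any library. For Ago2 kd at the 4-cell stage, 0 became 17 at an unadjusted p and 0 to 4 when a library was left out (2 without control replicate 1, 4 and 2 without Ago2 kd replicate 1 or 2). For the interaction, 0 became 1 with a pseudocount of 0.1 or either scaling to a sum, 15 at an unadjusted p and 0 to 2 when a library was left out (2 without 4-cell control replicate 1, 1 without 4-cell Ago2 kd replicate 2). In the Ago2 kd step, 41 became 10 with only the groups compared and 20 to 61 when a library was left out.

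When a library was left out, the mitochondrial mRNA median ranged from 0.24 to 0.42 (MII oocyte to 2-cell), -0.24 to 0.70 (2-cell to 4-cell control), -1.10 to -0.26 (Ago2 kd, 2-cell), 0.60 to 1.65 (Ago2 kd, 4-cell) and 1.61 to 2.50 (Ago2 kd step). The nuclear median ranged from 0.00 to 0.21 (MII oocyte to 2-cell), 0.52 to 0.81 (2-cell to 4-cell control), -0.11 to 0.00 (Ago2 kd, 2-cell), -0.0079 to 1.48 (Ago2 kd, 4-cell) and 0.70 to 2.17 (Ago2 kd step, 2.28 with a pseudocount of 0.1). With 1 library left in a group, that library was assumed to vary like the others.

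Deviations of same-numbered libraries correlated across genes between -0.093 and 0.092. Such values do not settle whether libraries with the same number were collected together, since they also depend on the noise of each library. With the replicate block, calls were 3 for MII oocyte to 2-cell, 19 for 2-cell to 4-cell control and 0 for both knockdown comparisons.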
